A study of Mus musculus with 2 samples.

Results

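The SoxD and SoxE transcription factors were described in the neural tube of mouse embryos, as the 6 genes Sox5, Sox6 and Sox13 (SoxD) and Sox8, Sox9 and Sox10 (SoxE). They were taken by gene symbol from the GENCODE M21 annotation and make up 6 of the 55536 gene IDs measured and 6 of the 20 Sox genes. The study has 1 group, neural tube of strain B6NCrl at embryonic day 12.5, with males and females pooled, and no treatment or altered allele is named. Replicate 1 pooled 120 embryos and replicate 2 pooled 88, so each library averages over many animals and over every cell type of the dissected tissue. Polyadenylated RNA was read from 10 ng of total RNA per library after oligo-dT priming. With a single group no condition can be compared, so levels and transcripts are described and the libraries are set against each other.

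Sox proteins bind DNA through the HMG box, a domain that sits in the minor groove and bends the helix. SoxD proteins carry a coiled coil through which they pair with each other and have no activation domain of their own, so they work together with other factors, SoxE proteins among them. SoxE proteins carry an activation domain. In the embryonic spinal cord Sox9 is known from progenitors and from the switch from making neurons to making glia, Sox10 from neural crest, Schwann cells, melanoblasts and later oligodendrocytes, and Sox8 from overlapping roles with both. Sox5 and Sox6 are known from progenitors and subsets of neurons and, beside Sox9, from cartilage.

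The HMG box is the part that the 6 genes share, and it was used below to sort annotated transcripts by whether their coding sequence holds the whole box. All 6 coding transcripts of these genes without the whole box are tagged in M21 as incomplete at an end, so the missing box may be a gap in the model and says nothing about what the RNA encodes. The first 90 of the 213 coding bases that were matched as the box are shown for each gene, read 5′ to 3′ from the M21 transcripts. Capitals mark the bases that are the same in all 6 genes.
Sox5: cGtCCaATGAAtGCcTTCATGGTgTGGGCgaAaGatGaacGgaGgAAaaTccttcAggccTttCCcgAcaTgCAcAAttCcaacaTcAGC
Sox6: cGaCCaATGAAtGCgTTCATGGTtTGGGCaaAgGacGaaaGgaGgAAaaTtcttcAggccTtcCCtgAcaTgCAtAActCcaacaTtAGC
Sox13: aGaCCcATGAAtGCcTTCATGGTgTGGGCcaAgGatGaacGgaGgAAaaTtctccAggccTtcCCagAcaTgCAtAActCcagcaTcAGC
Sox8: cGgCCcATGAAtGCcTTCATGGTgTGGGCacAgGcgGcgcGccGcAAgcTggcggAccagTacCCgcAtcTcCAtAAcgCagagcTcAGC
Sox9: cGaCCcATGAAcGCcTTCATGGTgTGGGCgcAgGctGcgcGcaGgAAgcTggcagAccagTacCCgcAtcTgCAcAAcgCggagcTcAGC
Sox10: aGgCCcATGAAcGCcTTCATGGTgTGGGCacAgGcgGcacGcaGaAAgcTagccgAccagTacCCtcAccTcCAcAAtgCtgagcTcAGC
Of the 213 positions, 96 were the same in all 6 genes, and 46 of the 90 shown. Identity ran from 81.7% to 85.4% within SoxD, from 82.2% to 85.9% within SoxE, and from 53.1% to 62.4% between the subgroups. The longest run of identical bases between any pair of genes was 26.

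All 6 genes reached 1 TPM (a transcript level per length, scaled to the same total in each library) in both libraries, as did 60.9% of protein-coding genes (13414 of 22028). They took 0.0406% of the gene counts in replicate 1 and 0.0402% in replicate 2, 13193 and 13843 estimated counts. The libraries held 33529531 and 35461403 estimated counts in all, and 3 counts on 1 kb, the limit that a count of 0 allows, were worth 0.143 and 0.138 TPM. The tissue label was set against its markers: all 10 neural progenitor genes and all 8 neuron genes of the lists used were expressed, with summed levels of 3009.91 and 3107.88 TPM for progenitors and 2290.17 and 2526.55 TPM for neurons. Of the lists for tissue around the neural tube, 9 of 9 skeletal muscle genes and 10 of 15 cartilage genes were expressed. The cartilage share is near the 60.9% of protein-coding genes, so that count by itself does not show cartilage. Blood was present too: 8 of 9 erythroid genes were expressed. Their summed levels, 8905.62 and 8689.42 TPM, were above those of the progenitor and neuron lists.

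Among the SoxE genes Sox9 stood far above its relatives. Sox9 was at 97.02 TPM in replicate 1 and 95.71 in the other, a mean of 96.4 ± 0.926 (SD, n = 2) from 8201 and 8370 counts. Of all protein-coding genes, 1742 had a mean at or above it, and among Sox genes only Sox11 (456 ± 6.60 TPM) and Sox4 (203 ± 2.47 TPM), both SoxC factors of newly born neurons, were higher. Sox10 was at 21.41 and 28.26 TPM, 24.8 ± 4.84. Its libraries lay further apart, relative to the mean, than those of any of the other 5 genes. Sox8 was the lowest of the 6 genes at 6.36 and 7.51 TPM, 6.94 ± 0.813. Within a library, the log2 ratio of Sox9 to Sox10 was 1.97 ± 0.30 and that of Sox9 to Sox8 was 3.80 ± 0.18. No p goes with these ratios, because an exact test of 2 values cannot go below 0.5.

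The SoxD genes gave Sox6 first, then Sox5, then Sox13, when all annotated transcripts were summed. Sox6 was at 52.83 and 58.56 TPM, 55.7 ± 4.05, from 1806 and 1805 counts. Sox5 was at 26.09 and 26.05 TPM, 26.1 ± 0.0283. Sox13 was at 11.55 and 11.21 TPM, 11.4 ± 0.240. In the order of all 6 genes on this scale, Sox9, Sox6, Sox5, Sox10, Sox13 and Sox8, the neighbours Sox5 and Sox10 overlapped between libraries and the others did not. The summed level of SoxE exceeded that of SoxD by a log2 ratio of 0.46 ± 0.01. Of the TPM of all Sox genes, SoxE held 12.9% ± 0.319 and SoxD 9.40% ± 0.266, against 68.0% ± 0.391 for SoxC. At the other end, Sry, which sets male sex, was listed at 0 in both.

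With all annotated transcripts summed, the place of Sox6 above Sox5 and Sox10 held only for the newer annotation. The authors deposited the same libraries quantified against the older GENCODE M4 as well, and there Sox6 was at 14.03 and 14.28 TPM, 14.2 ± 0.177, lower by a factor of 3.93. Its counts differed far less, with 1806 and 1805 in M21 and 1563 and 1584 in M4. The effective length by which counts are divided was 1632.21 and 1422.61 bases in M21 and 5602.61 and 5372.27 bases in M4. The other 5 genes moved little: Sox9 was at 101 ± 1.22 TPM in M4, Sox10 at 25.5 ± 5.11, Sox5 at 24.7 ± 0.799, Sox13 at 12.0 ± 0.269 and Sox8 at 7.53 ± 0.926. Among 9466 protein-coding genes with at least 10 TPM in either release, 2.79% differed at least 2-fold between releases. Of the 5 genes that entered that count (Sox8 was too low), Sox6 was the only one past 2-fold, and 32 genes of the 9466 had an M21 to M4 ratio as high as that of Sox6 or higher. With M4 the log2 ratio of Sox5 to Sox6 changed sign, from −1.09 ± 0.11 to 0.80 ± 0.03.

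**Figure D1:**
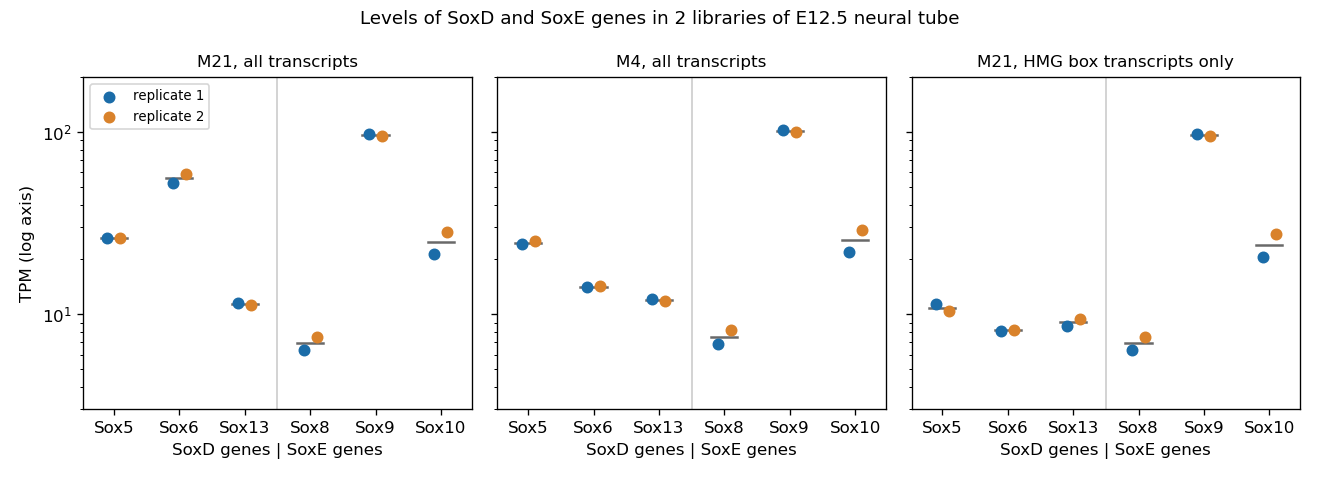
TPM of each gene (log axis) in replicate 1 and replicate 2, with the mean as a bar, for all M21 transcripts, all M4 transcripts and the M21 transcripts that encode the whole HMG box. Sox6 is at 55.7, 14.2 and 8.16 TPM across the panels, while Sox9 is at 96.4, 101 and 96.4 TPM.

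The transcripts showed where the TPM of Sox6 lay. In M21, 16 transcripts of Sox6 were measured, 10 of them above 0 in both libraries. Sox6-207, 331 bases long and annotated as coding, held 27.1% ± 3.43 of the gene's TPM but 4.16% ± 0.925 of its counts. Sox6-211, 448 bases and annotated as coding, held 26.6% ± 3.06 of the TPM and 6.14% ± 1.30 of the counts. Sox6-208, a processed transcript of 479 bases, held 19.8% ± 2.23 of the TPM and 4.93% ± 0.0764 of the counts. Neither of the coding pair holds the whole HMG box, and both are incomplete models. None of these 3 transcripts was found by ID in M4, nor was Sox6-210, described next.

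By count a long transcript led. Sox6-210, 8668 bases long with a coding length of 2358, held 908.83 and 935.14 counts, 51.1% ± 1.05 of the gene, but 5.06 and 5.04 TPM. It was picked out after its values were seen, as were the other transcripts named below with under 10% of their gene's TPM. All 331 bases of Sox6-207 also lie in Sox6-210, in stretches of at least 21 bases, so reads there were divided between them by estimate. Its first 120 bases are shown because that transcript held the largest share of the gene's TPM although none of its bases are particular to it.
Sox6-207: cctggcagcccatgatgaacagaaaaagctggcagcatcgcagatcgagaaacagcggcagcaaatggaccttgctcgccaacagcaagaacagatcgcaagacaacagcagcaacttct
Of Sox6-211, 380 of 448 bases are shared with Sox6-210 in the same way, and of Sox6-208 82 of 479.

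**Figure D2:**
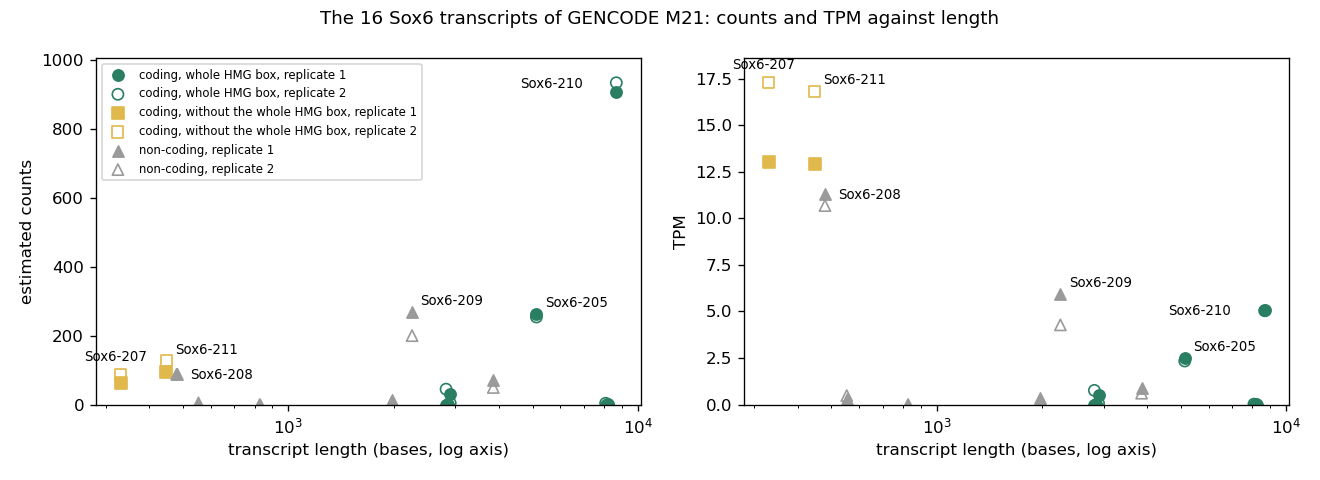
Estimated counts (left) and TPM (right) of the 16 Sox6 transcripts against transcript length (log axis), with filled marks for replicate 1 and open marks for replicate 2. Sox6-210 is highest by counts, with 908.83 and 935.14, and the short Sox6-207, Sox6-211 and Sox6-208 are highest by TPM.

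Short transcripts weighed on Sox5 as well. Transcripts under 700 bases, a length chosen after the values were seen, held 74.2% ± 4.40 of the TPM of Sox6 and 15.4% ± 2.21 of its counts. For Sox5 they held 44.1% ± 6.19 of the TPM and 9.50% ± 2.07 of the counts. The median over the 9466 protein-coding genes was 2.86% of TPM, and 3.37% of these genes had a share as high as that of Sox6 and 6.71% one as high as that of Sox5. Sox6 has 16 annotated transcripts and Sox5 has 14, against a median of 6. Sox13 had 2.29% ± 3.24 of its TPM on such transcripts, and Sox9 and Sox10 have no transcript that short.

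When the M21 transcripts that encode the whole HMG box were taken alone, a measure chosen after the values were seen, the SoxD genes came out close together and below Sox9 and Sox10. Sox5 was at 11.35 and 10.36 TPM (10.9 ± 0.700), Sox13 at 8.64 and 9.38 (9.01 ± 0.523) and Sox6 at 8.08 and 8.23 (8.16 ± 0.106). Sox10 was at 20.57 and 27.53 TPM (24.1 ± 4.92), and Sox9 and Sox8 kept their levels, since all of their TPM lay on such transcripts. No neighbours in this order overlapped between libraries. The log2 ratio of SoxE to SoxD was then 2.18 ± 0.06. These transcripts made up 41.7% ± 2.66 of the TPM of Sox5 and 14.7% ± 0.877 of that of Sox6, but 72.6% ± 0.989 and 67.7% ± 1.57 of their counts. They made up 79.2% ± 6.27 of the TPM of Sox13 and 96.7% ± 0.948 of that of Sox10. Within SoxD the order on this scale also depended on the release: in M4, with transcripts sorted by the M21 model of the same ID, it was Sox6 at 14.2 ± 0.184 TPM, Sox13 at 9.49 ± 0.530 and Sox5 at 4.44 ± 0.403.

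**Figure D3:**
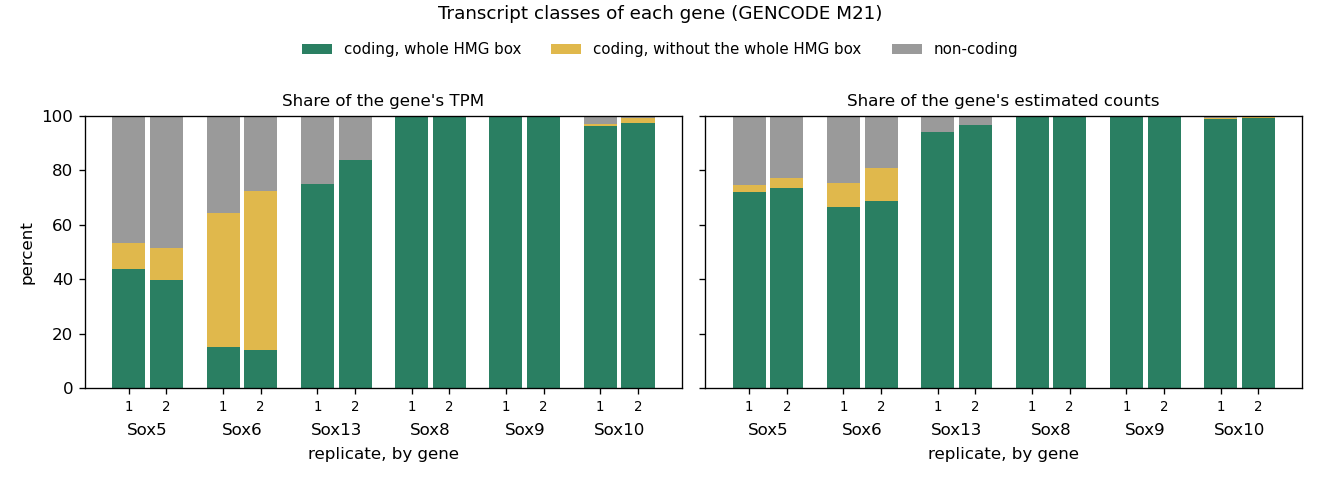
Share of each gene's TPM (left) and estimated counts (right), in percent, on M21 transcripts that encode the whole HMG box, on coding transcripts without it and on non-coding transcripts, with 1 bar per replicate. For Sox5 and Sox6 the share on HMG box transcripts is 41.7% and 14.7% by TPM but 72.6% and 67.7% by counts.

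Sox5, on chromosome 6 (mm10 143828425 to 144781977, minus strand, ENSMUSG00000041540.16), had most of its M21 counts on long coding forms. Sox5-202, with a coding length of 2145 bases, held 31.4% ± 0.156 of the TPM and 417.41 and 428.27 counts. In M4, where the transcript of that ID is 7071 bases long and not 2526, it held 0.57% ± 0.806, and Sox5-205, listed at 0 in M21, held 439.5 and 174.8 counts. Which long form carried the reads thus depended on the release. Sox5-201, with a coding length of 2289 bases, held 313.4 and 297.46 counts, with deposited posterior standard deviations of 74.85 and 32.73. The long forms begin between 144209452 and 144209568 and together held 10.2 ± 0.170 TPM. Sox5-204, a form with a coding length of 1176 bases that begins downstream at 143947106, held 1.05 and 0.3 TPM. The non-coding Sox5-208 (351 bases) held 22.3% ± 2.30 of the TPM with 3.03% ± 0.508 of the counts. Sox5-213, a retained intron, and Sox5-211, an incomplete coding model without the whole box, held 11.1% ± 2.50 and 10.7% ± 1.39 of the TPM, and 16.7% ± 4.97 and 17.1% ± 3.68 in M4. Of the 7 other genes annotated inside Sox5, Sox5os1, Sox5os3, Sox5os4, Sox5os5 and Sox5it were listed at 0 in both libraries, Sox5os2 had a single count and Gm44068 was at 0.31 ± 0.0566 TPM.

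Sox6, on chromosome 7 (115470872 to 116038796, minus strand, ENSMUSG00000051910.13), has several annotated starts for its HMG box transcripts. The start at 116031047, that of Sox6-210, held 5.05 ± 0.0141 TPM, and the start at 115824710, that of Sox6-205, held 2.43 ± 0.120 TPM with 264.09 and 254.39 counts. The remaining starts held at most 0.38 ± 0.537 TPM. In M4 the reads lay differently: Sox6-202, which shares the start at 116031047, held 628.95 and 460.67 counts and Sox6-205 held 357.41 and 342.14, but Sox6-204 and Sox6-203, from other starts, held 314.95 and 419.05 and 238.47 and 297.17. The 250 bases before 116031047 and before 115824710 are shown, as the sequence next to the starts that took most of these reads in M21, from RefSeq on GRCm38.p6, minus strand. Capitals mark the motif ACAANG, a core that Sox proteins bind, on either strand, so that CNTTGT is the same motif read from the other strand.
Sox6 at chr7:116031048-116031297: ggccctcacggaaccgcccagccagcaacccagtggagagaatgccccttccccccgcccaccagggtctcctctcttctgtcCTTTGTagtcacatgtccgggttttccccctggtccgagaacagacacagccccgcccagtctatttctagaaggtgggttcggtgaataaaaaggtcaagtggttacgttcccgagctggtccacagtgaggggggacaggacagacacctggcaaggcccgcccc
Sox6 at chr7:115824711-115824960: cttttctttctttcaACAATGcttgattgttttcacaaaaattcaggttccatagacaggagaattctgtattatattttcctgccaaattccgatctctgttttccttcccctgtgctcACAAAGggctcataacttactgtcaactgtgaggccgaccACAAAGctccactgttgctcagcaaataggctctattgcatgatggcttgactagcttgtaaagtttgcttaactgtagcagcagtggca
The upstream window held the motif once and the downstream one 3 times. Of 32851 promoter windows of 250 bases, 36.3% held it. Of the 6 windows of Sox6 5 held it, as did the single window of Sox5, and the single windows of Sox8 and Sox13 did not. Such matches are a description of letters. The antisense genes Sox6os and Gm45025, which overlap Sox6, were at 0.665 ± 0.530 and 0.215 ± 0.106 TPM. No strand step is named for these libraries, so reads of antisense partners cannot be told apart from those of the gene where exons overlap.

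Sox13, on chromosome 1 (133382303 to 133424377, minus strand, ENSMUSG00000070643.11), had estimated counts on transcripts from both of its main annotated starts. Use of the starts themselves was not measured. Sox13-205, with a coding length of 1839 bases and a start at 133424377, held 49.9% ± 4.77 of the TPM. Sox13-203, with a coding length of 1512 bases and a start at 133393218, held 29.4% ± 1.50. Its counts were 210.85 and 227.66, with posterior standard deviations of 35.18 and 29.69. The retained intron transcript Sox13-204 held 18.4% ± 3.03 of the TPM but 4.32% ± 0.981 of the counts.

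The SoxE genes had simpler transcripts. Sox9, on chromosome 11 (112782224 to 112787760, plus strand, ENSMUSG00000000567.5), has a single annotated transcript, so its level did not depend on dividing reads among forms. Sox10, on chromosome 15 (79154908 to 79165240, minus strand, ENSMUSG00000033006.10), lay almost wholly on Sox10-201, with 96.7% ± 0.940 of its TPM. Sox10-203, which codes for the same length of 1398 bases, was listed at 0 with posterior standard deviations of 50.04 and 57.79 counts. Sox8, on chromosome 17 (25565892 to 25570686, minus strand, ENSMUSG00000024176.10), was divided between Sox8-201, with a coding length of 1392 bases and 73.9% ± 5.07 of the TPM, and Sox8-202, with 663 coding bases and 26.1% ± 5.07. The antisense gene 2810468N07Rik overlaps Sox8 by 329 bases and was at 4.24 and 3.18 TPM. Its smaller value was in replicate 2, where Sox8 had its larger one; neither gene was tested against the other.

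The libraries were then compared gene by gene with a two-sided exact binomial test, which covers counting error only and describes these 2 libraries. Of the 6 genes, 3 passed at a Benjamini-Hochberg adjusted p of 0.05, where 20.3% of the 20125 genes tested passed. The test picks up smaller changes at higher counts, so that share depends on level. At an unadjusted binomial p below 0.05 were 6250 of all 20125 genes, and 3997 of the 9835 with a mean of at least 10 TPM. The latter set holds all of the 6 genes but Sox8. Sox10 was higher in replicate 2 by a log2 ratio of 0.37 (95% Clopper-Pearson interval 0.26 to 0.48, exact binomial adjusted p = 1.26e-09), from 1141 and 1572 counts. By counts Sox5 was lower by −0.18 (−0.30 to −0.05, exact binomial adjusted p = 0.0338), and Sox9 by −0.06 (−0.10 to −0.02, exact binomial adjusted p = 0.0416). By TPM, Sox5 hardly differed, at 26.09 and 26.05, and its log2 ratio of TPM + 1 was −0.0021. The calls of Sox5 and Sox9 were lost when the spike-in RNAs set the scale (exact binomial adjusted p = 0.168 and 0.945) and when no low genes were left out (0.0502 and 0.0614).

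Sox6 was at −0.09 (−0.18 to 0.01, exact binomial adjusted p = 0.188), Sox8 at 0.11 (−0.11 to 0.33, adjusted p = 0.550) and Sox13 at 0.05 (−0.11 to 0.20, adjusted p = 0.745). Sox6 thus had a negative log2 ratio by counts, although its TPM was the higher in replicate 2. On the scale of TPM + 1 the log2 ratio of Sox6 was 0.15. For edgeR, the common dispersion was estimated from these same 2 libraries taken as 1 group. The differences tested thus helped to set the spread they were judged by, so the edgeR results are no independent check. With the exact test of edgeR, given a common dispersion with a biological coefficient of variation of 7.36%, 0 of the 6 genes passed, where 1.13% of all genes did. At an unadjusted p of 0.05 that test gave 1 gene, Sox10 (p = 0.0204, adjusted p = 0.432), and the binomial test 3. A change as large as that of Sox10 in either direction was seen in 19.9% of the genes tested, and the median size of the log2 ratio was 0.129 over all genes and 0.0746 over those with a mean of at least 10 TPM.

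**Figure D4:**
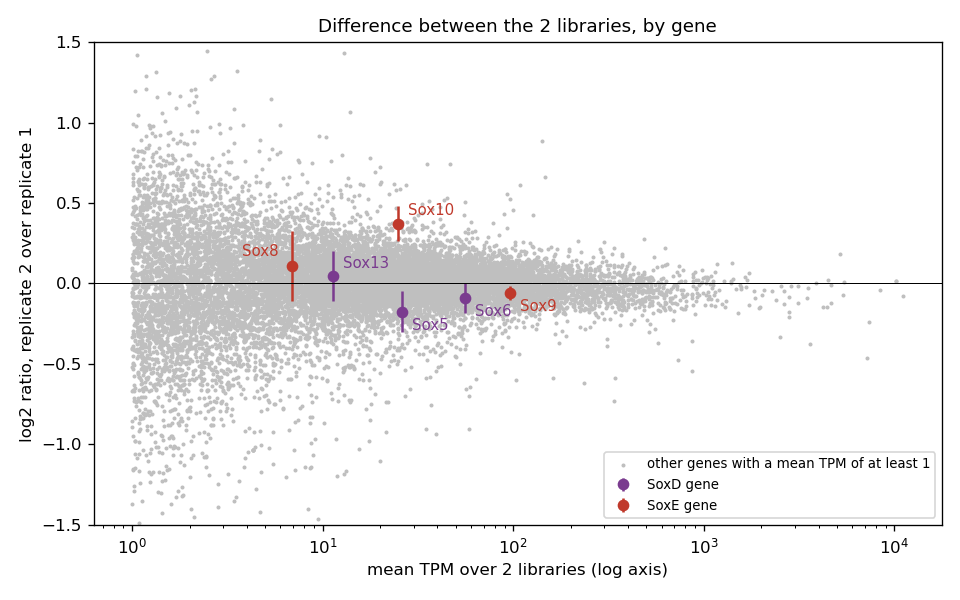
Log2 ratio of replicate 2 over replicate 1 against the mean TPM (log axis) for 16079 genes with a mean of at least 1 TPM in grey, with the SoxD and SoxE genes with 95% Clopper-Pearson intervals; 63 genes beyond 1.5 in either direction are not drawn. Sox10, at 0.37, is the only one of the 6 genes that lies clear of 0 by more than 0.2.

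Sox10 is known from cells of the neural crest lineage, so lists of crest, Schwann cell, melanoblast and sensory ganglion genes were set beside it. In these bulk libraries fewer cells of a type and less RNA per cell cannot be told apart. The 9 sensory ganglion genes are known from neurons born from crest beside the neural tube, but not all are particular to those neurons. Of these 9 genes, 7 were higher in replicate 2 by the binomial test and 0 lower (10.5% and 9.78% of all genes). Their median log2 ratio was 0.42 against −0.00093 over all genes. Their summed level was 333.54 and 452.65 TPM, and 3 of them passed as higher with edgeR, where 0.432% of all genes did. Isl1, a factor of sensory and motor neurons, was at 104.72 and 148.36 TPM. Prdm12, which specifies pain-sensing neurons, was at 29.22 and 42.78 TPM, and Scn10a, their sodium channel and the lowest of the list, at 2.35 and 5.31 TPM. Ntrk2 was at 58.52 and 60.02 TPM and did not pass.

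Of 14 Schwann cell and crest genes tested, 5 were higher in replicate 2 and 2 lower; their median log2 ratio was 0.08, with summed levels of 374.42 and 412.05 TPM. Ednrb, the endothelin receptor of crest cells, was at 115.4 and 133.89 TPM and Ngfr at 82.78 and 98.74 TPM. The pair that was lower was Tfap2b, at 69.37 and 61.96 TPM (log2 ratio −0.12), and Tfap2a, named after its values were seen, at 16.89 and 12.26 TPM (−0.53, exact binomial adjusted p = 1.38e-12, edgeR adjusted p = 0.0853); both are factors of early crest. Gjb1, a gap junction protein of mature Schwann cells, was the lowest at 0.17 and 0.23 TPM. Of 5 melanoblast genes tested 3 were higher and 0 lower, with summed levels of 30.03 and 33.93 TPM, most of it Kit at 25.12 and 27.05 TPM. Dct was at 2.16 and 3.04 TPM, and Tyrp1, a pigment enzyme, at 0.02 and 0.1 TPM. With edgeR no gene of the crest and melanoblast lists passed.

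The oligodendrocyte lineage also uses Sox10. Of its 9 genes 2 were higher in replicate 2 and 0 lower, and the median log2 ratio was −0.06. The pair that passed, named after their values were seen, were Olig1, a factor of the lineage, at 2.41 and 4 TPM (log2 ratio 0.68, exact binomial adjusted p = 0.00101), and Gpr17, a receptor of its precursors, at 1.67 and 2.22 TPM (0.37, adjusted p = 0.0490). Of all 9 genes, 3 had a positive log2 ratio. Olig2, also named after its values were seen, was at 2.3 and 2.26 TPM (log2 ratio −0.06). Nkx2-2, named in the same way, was at 3.69 and 2.95 TPM (−0.34). Cnp was at 25.96 and 26.5 TPM, Pdgfra at 19.1 and 18.86 TPM, Mbp at 12.43 and 14.79 TPM and Cspg4 at 4.53 and 4.19 TPM. Myrf, a factor of maturing oligodendrocytes, was the lowest at 1.07 and 0.79 TPM. The part of these cell types, oligodendrocyte precursors included, in the difference of Sox10 was not tested.

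Beside Sox9 and the SoxD genes stand the lists of progenitors, of early glia and of cartilage. Of 10 progenitor genes 2 were higher and 2 lower in replicate 2 (median log2 ratio −0.04), and of 10 early glial genes 0 were higher and 2 lower, with a median of −0.01. Slc1a3, a glutamate transporter of radial glia, was at 65.23 and 67.25 TPM, Fgfr3 at 48.91 and 46.13 TPM, and Nfib and Nfia, factors of the switch to glia, at 40.12 and 40.23 TPM and at 37.4 and 33.47 TPM. Gfap, the filament of mature astrocytes, was at 0.06 and 0.09 TPM. Of the 11 genes on that list, 8 were expressed.

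Cartilage uses Sox9, Sox5 and Sox6 together, and 1 of its 13 genes tested was higher in replicate 2 and 4 were lower; the median log2 ratio was −0.15. The summed level of its 15 genes was 291.3 and 273.85 TPM, most of it Col2a1, the main collagen of cartilage, which is also a target of Sox9, at 151.16 and 143.17 TPM. Col9a3 was at 44.23 and 41.18 TPM, Col9a1 at 31.18 and 24.4 TPM and Col11a1 at 19.38 and 20.06 TPM, whereas Ucma and Snorc were both at 0.185 TPM on average. Acan, Matn3, Comp and Matn1, named after their values were seen, had means of 1.175, 0.675, 0.435 and 0.36 TPM. No gene of the progenitor, early glial, oligodendrocyte or cartilage lists passed with edgeR. The part of cartilage in the levels of Sox9, Sox5 and Sox6 was not tested. Skeletal muscle, a tissue outside the neural tube, had the lowest median of the 10 lists: 8 of 9 genes were lower in replicate 2 and 0 higher, with a median log2 ratio of −0.46 and summed levels of 325.55 and 236.75 TPM. Of these, 3 passed as lower with edgeR, where 0.696% of all genes did. Of 8 neuron genes 4 were higher in replicate 2 and 1 lower (median log2 ratio 0.10), and of 9 erythroid genes, from blood in the tissue, 0 were higher and 2 lower (0.01).

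**Figure D5:**
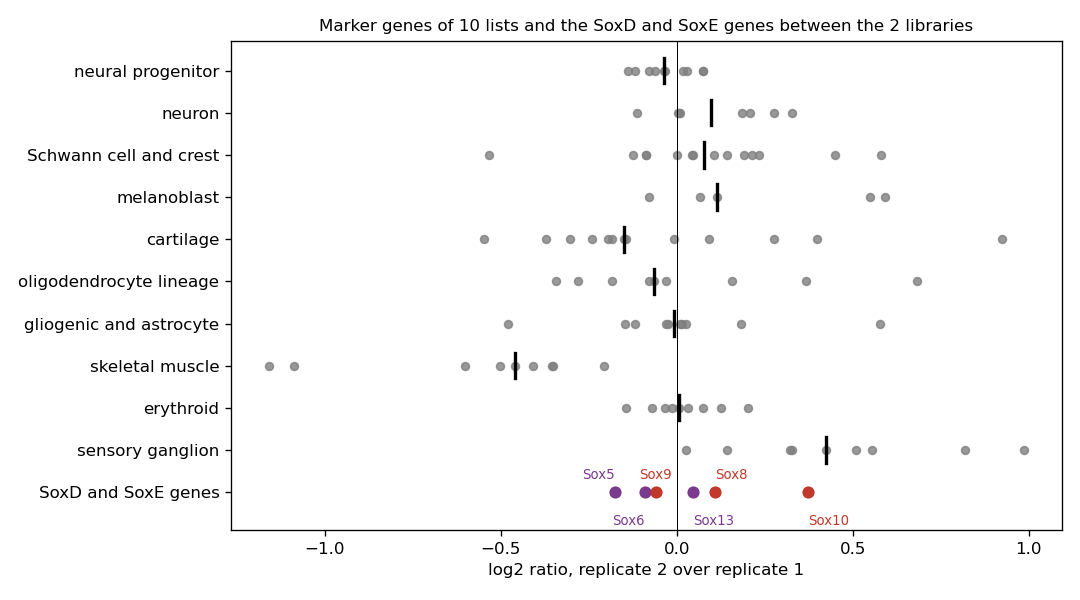
Log2 ratio of replicate 2 over replicate 1 for each tested gene of the 10 marker lists (grey points, with the list's median as a black bar) and for the SoxD and SoxE genes in the bottom row. The sensory ganglion genes all lie above 0 with a median of 0.42, the skeletal muscle genes all below with a median of −0.46, and Sox10 lies at 0.37. The Schwann cell and crest genes lie on both sides of 0, with a median of 0.08.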

How the data were processed

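Polyadenylated RNA was measured in 2 libraries of 1 group. The deposited notes state that alignment was to the mm10 transcriptome and quantification against GENCODE M21 and M4; the tool is not given in the sources used here, and the column names are those of RSEM. The deposited estimated counts share out reads that match several genes. The deposited TPM divides them by effective length, so a read on a short transcript weighs more. The percent of a gene's TPM per transcript and posterior standard deviations were deposited by the authors too.

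M21 TPM was the main level, with mean ± SD. All 6 genes and all 101 genes of the 10 marker lists were measured; Drgx is named Prrxl1 in M21. HMG boxes were found by translating annotated coding sequences and matching a fixed pattern of amino acids. The match sets the ends of the box used here, which may differ from the limits of the domain. Counts were rounded, scaled by TMM (edgeR 4.0.16, R 4.3.3), kept at 10 or more in either library and compared by a two-sided exact binomial test with Benjamini-Hochberg adjustment (scipy 1.17.1), with a prior count of 2 in log2 ratios. The test was tried on simulated counts with counting error only, which is the error it assumes. That run therefore says nothing about further spread between libraries. DESeq2 1.42.0 gave alternative size factors. Intervals and limits cover counting error only, and PCR copies count as separate reads. Python 3.11.15, numpy 2.4.6, pandas 2.3.3 and matplotlib 3.10.9 were used.

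The genes and lists were chosen with earlier results of these data known. Named are the 6 genes, up to 4 highest and the lowest gene of each list (some are not reported here), the highest Sox genes, transcripts with at least 10% of their gene's TPM and genes overlapping the 6. RefSeq promoters matched 4 of the 6 genes, without Sox9 and Sox10.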

Additional observations from a re-analysis of the deposited data

How the results depend on the processing

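No paired analysis was possible because the study has 1 group. Leaving out a library ends the comparison between libraries; for levels it gave 52.83 to 58.56 TPM for Sox6, 21.41 to 28.26 for Sox10 and 1.76 to 2.18 for the log2 ratio of Sox9 to Sox10; with 2 libraries such values lie within 1 SD of the mean by construction. With M4, levels were 24.7 TPM for Sox5, 14.2 for Sox6, 12.0 for Sox13 and 101 for Sox9; the posterior mean gave 26.0 for Sox5 and 93.3 for Sox9. HMG box transcripts alone gave 10.9 for Sox5, 8.16 for Sox6 and 9.01 for Sox13. The percent of TPM on such transcripts was 18.0 for Sox5, 100 for Sox6 and 100 for Sox10 with M4, and 94.2 for Sox8 and 95.5 for Sox10 with the posterior mean. For Sox6 and Sox10 the value with M4 was fixed in advance, since all of their transcripts there hold the whole box by the M21 model. The log2 ratio of Sox5 to Sox6 reversed to 0.80 with M4 and 0.41 on HMG box transcripts, where effective length differs by construction. That of Sox13 to Sox5 was −1.20, and −1.04 with M4, −1.13 with TPM + 1 and −0.27 on HMG box transcripts. That of SoxE to SoxD was 1.40 with M4 and 2.18 on HMG box transcripts. Of the 6 genes 3 were called between the libraries, 1 with spike-in totals, 1 with no filter on low counts and 0 with edgeR; Sox9 also lost its call with total counts (adjusted p = 0.0782). With TPM + 1 the log2 ratio between libraries reversed to 0.15 for Sox6 and −0.040 for Sox13, and for Sox5 it shrank to −0.0021. All 6 genes stayed above 1 TPM under each alternative run. Depth limits Sox8 most, at 324.47 and 371.98 counts.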

Other observations

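Beside the overlapping genes, some genes lie within 1000 bases of one of the 6; they were picked out after their values were seen. BC006965, on the opposite strand 247 bases from Sox9, was at 3.27 and 2.61 TPM. Gm10863, on the opposite strand 800 bases from Sox10, had 13 counts in replicate 1 and 24 in replicate 2. 1110004F10Rik, on the opposite strand 600 bases from Sox6, was at 244 ± 0.417 TPM (SD, n = 2), well above Sox6 itself.

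When counts were divided by the longest annotated transcript of each gene in place of the effective length, a scale also chosen later, Sox9 had 59.9 ± 1.55 counts per kb, scaled to gene counts,, Sox10 14.5 ± 2.69, Sox6 6.23 ± 0.253, Sox13 5.55 ± 0.148, Sox5 4.28 ± 0.353 and Sox8 3.46 ± 0.195. On this scale no neighbours in the order overlapped between the libraries, and Sox6 led the SoxD genes by a small margin.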
